A study of Mus musculus with 19 samples.

Results

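Cardiac myosin heavy chain genes encode the motor protein of the thick filament. The 3 described here are Myh6 (alpha chain), Myh7 (beta chain) and Myh7b, out of 21000 mouse protein-coding genes with a curated RefSeq transcript. They were taken by name. For each gene, every 5-hydroxymethylcytosine (5-hmC) peak that touched the gene body (GB, the span from the start to the end of its curated transcripts), the interval between Myh6 and Myh7, or the 20 kb upstream of the gene was collected from 8 peak lists. This gave 155 of the 1000847 peaks in all lists.

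5-hmC was measured in cardiomyocytes (CMCs) isolated from C57BL/6J mice with no transgene or deletion, at 4 points with 2 replicates each: embryos at E14.5, neonatal pups of 1 to 2 days, adults of 2 months, and adults in the TAC group, in which the aorta had been constricted at its transverse arch for 1 week, which loads the left ventricle with pressure and makes CMCs hypertrophic. The methods name male mice and describe the replicates as biological, without the number of hearts in each. Adult CMCs were freed from the left ventricle by enzymatic perfusion and settled by gravity, whereas those of embryos and pups came from digested ventricles, so that age and isolation cannot be told apart. The adult samples are labelled only as adult, with no mention of sham surgery, and the preparations were not pure CMCs according to the methods.

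Of the 19 labelled samples, the 8 with a peak list entered. The lists held 104215 to 153637 peaks, which covered 2.71 to 4.89% of the known autosomal bases. The lists give positions with no strength, and the number of reads behind each is unknown here, so the percent of a region's bases that lie under peaks (percent covered) is the measurement used, and it limits what can be said about regions with few peaks. TAC replicate 2 stood apart. Across the autosomes, the density of its peak centres 400 to 700 bp away from those of another list, divided by the density within 150 bp, was 1.66 to 4.09 in its 7 pairings, whereas the 21 pairings of the other samples gave 0.0388 to 0.214. TAC comparisons of the members are therefore given with and without it. The median coverage of the 6 markers Ttn, Ryr2, Actn2, Tnnt2, Myh6 and Mybpc3 was 6.67 to 37.1% over the lists. That of 5 fibroblast genes (Vim, Col1a2, Tcf21, Pdgfra, Dcn) was 0 to 1.39%, and that of 4 endothelial genes (Pecam1, Cdh5, Tek, Kdr) 4.27 to 14.1%. Of the fibroblast genes, Tcf21, which spans less than 5 kb, was at 0 in every list. Single values reached 7.35% in Vim, 6.51% in Pdgfra and 5.52% in Dcn. Vim was covered at 0 and 0% at E14.5 and at 5.88 and 7.35% in the adult lists. Both adult replicates were above both E14.5 ones in 28.6% of all protein-coding genes of at least 5 kb. All 6 CMC markers, Myh6 among them, were lower in both adult than both neonatal replicates. So were 21.7% of all protein-coding genes of at least 5 kb that were tested. The median difference was -17.7 points over the markers and -0.153 over all these genes. Coverage by 5-hmC is no measure of expression, and the part of other cells in the results below was not tested.

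As background, 5-hmC is made from 5-methylcytosine by the TET enzymes, mostly where a cytosine precedes a guanine (CpG). In the mouse ventricle the slow beta chain predominates before birth and the fast alpha chain afterwards, and pressure overload brings back the beta chain, which makes the pair the textbook example of a fetal gene programme. Myh7b is an ancient relative on another chromosome. Each of the 3 genes carries a microRNA in an intron, which is processed from the same transcript and takes part in the control of myosin genes.

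Myh6 lies at chr14:54941921-54966607 and Myh7 at chr14:54970684-54994626, head to tail on the minus strand of mm10, with 39 and 41 exons in their longest transcripts and 4076 bp between them. Myh7b lies at chr2:155611243-155634307 on the plus strand, with 42 exons. The 20 kb upstream of Myh6 thus consist of the interval and most of Myh7. The mature microRNAs are shown because the peaks over their introns differ between the genes. Capitals mark the seed, bases 2 to 8, and the sequences are from RefSeq (GRCm38.p6, the assembly of mm10).

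miR-208a-3p: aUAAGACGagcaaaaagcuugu
miR-208b-3p: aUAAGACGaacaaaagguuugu
miR-499-5p: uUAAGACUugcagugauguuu

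miR-208a-3p, from intron 29 of Myh6, and miR-208b-3p, from intron 31 of Myh7, share their whole seed and 19 of 22 bases. miR-499-5p, from intron 19 of Myh7b, has 6 of the 7 seed bases in common with both.

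The next 3 sequences are one coding exon as it stands in each gene, because it lets the genes be read side by side at a single place. The Myh6 sequence is the 300 bases with most CpG of the longest stretch that lay under peaks in both E14.5 and both neonatal lists and in no adult list, so its pattern in these 6 lists was fixed by the choice. The Myh7 sequence is its best ungapped match in that gene, and the Myh7b sequence the 300 bases with most CpG of the longest stretch that all 8 lists covered, so that its pattern too was fixed by the choice and the contrast between Myh6 and Myh7b at this place is no finding. They are written on the sense strand with each CpG in capitals.

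Myh6 exon 26, chr14:54950351-54950650, minus strand: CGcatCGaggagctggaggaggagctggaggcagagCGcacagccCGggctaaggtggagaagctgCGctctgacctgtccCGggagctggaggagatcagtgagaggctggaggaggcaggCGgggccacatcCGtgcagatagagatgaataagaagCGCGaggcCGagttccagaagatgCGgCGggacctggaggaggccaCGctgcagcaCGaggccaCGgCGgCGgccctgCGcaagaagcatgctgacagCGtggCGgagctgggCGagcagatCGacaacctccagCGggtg
Myh7 exon 28, chr14:54979260-54979559, minus strand: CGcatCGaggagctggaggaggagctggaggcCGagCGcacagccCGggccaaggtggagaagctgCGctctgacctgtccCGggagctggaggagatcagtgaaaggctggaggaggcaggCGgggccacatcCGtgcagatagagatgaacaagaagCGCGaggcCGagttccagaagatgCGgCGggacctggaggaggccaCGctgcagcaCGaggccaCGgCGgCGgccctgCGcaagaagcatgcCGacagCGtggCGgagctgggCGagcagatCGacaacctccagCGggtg
Myh7b exon 29, chr2:155629296-155629595, plus strand: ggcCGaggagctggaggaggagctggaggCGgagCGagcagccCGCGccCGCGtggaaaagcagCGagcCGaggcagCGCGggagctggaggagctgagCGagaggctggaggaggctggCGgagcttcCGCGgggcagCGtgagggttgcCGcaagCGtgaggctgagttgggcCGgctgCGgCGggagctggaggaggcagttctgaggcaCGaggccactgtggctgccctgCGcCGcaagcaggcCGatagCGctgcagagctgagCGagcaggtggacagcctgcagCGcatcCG

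The 3 exons are 390 bases long in each gene and are counterparts. Over the 300 bases Myh7 equalled Myh6 at 295 positions (98.3%), and Myh7b at 218 (72.7%) of the ungapped match that begins 2 bases earlier. The printed windows held 24 CpG in Myh6, 26 in Myh7 and 29 in Myh7b. In Myh6 and in Myh7 the window lay wholly under a peak in the same 4 lists, E14.5 and neonatal, and under none of the adult and TAC lists. In Myh7b it lay wholly under a peak in all 8. Of the 341 windows of 50 bases in the exon of Myh6, 89 also occur in that of Myh7, so that a read within such a window cannot be placed in one gene, and the authors removed reads of low mapping quality.

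Myh6, the alpha chain gene, was heavily covered before and just after birth and hardly at all in the adult. Peaks covered 43.2 and 32.4% of its GB at E14.5 and 38.3 and 56.5% in neonatal CMCs, against 2.03 and 5.65% in adult CMCs and 9.65 and 8.54% after TAC. All 4 early values lay above all 4 late ones. Point by point the means were 37.8% ± 7.67 (SD, n = 2), 47.4% ± 12.8, 3.84% ± 2.56 and 9.10% ± 0.788, so that the neonatal mean was 12.3 times the adult one. As multiples of the percent of the autosomes under peaks, which takes out differences between lists in how much was called, the same means were 9.99, 10.6, 1.02 and 3.12. Between E14.5 and the neonatal point the replicates overlapped. Both TAC values exceeded both adult ones; without TAC replicate 2 the remaining value, 9.65%, still did.

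Myh7, the beta chain gene, showed the same order of early and late points, at a lower level in the early lists. Peaks covered 37.9 and 24.3% at E14.5 and 32.8 and 21.2% in neonatal CMCs. They covered 2.09 and 8.37% in adult CMCs and 13.4 and 6.85% after TAC. Again the lowest early value was above the highest late one, and the E14.5 and neonatal replicates overlapped. The means were 31.1% ± 9.61, 27.0% ± 8.20, 5.23% ± 4.44 and 10.1% ± 4.65 (SD, n = 2 each), a neonatal mean 5.15 times the adult one. The TAC and adult replicates overlapped, and without TAC replicate 2 the TAC value of 13.4% lay above both adult values. Most late coverage of Myh7 came from peaks of the common width, 501 bp. With wider peaks only it was 33.7 and 20.1% at E14.5 and 28.6 and 17.0% in neonatal CMCs. It was then 0 and 0% in adult CMCs and 7.15 and 0% after TAC.

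Myh7b was highly covered at all 4 points. It had 42.8 and 24.1% of its GB under peaks at E14.5, 70.5 and 64.6% in neonatal CMCs, 41.04 and 63.1% in adult CMCs and 56.5 and 16.5% after TAC. Its means were 33.4% ± 13.2, 67.57% ± 4.13, 52.1% ± 15.6 and 36.5% ± 28.3 (SD, n = 2 each). Both neonatal values were above both E14.5 values and both adult values. As multiples of the autosomal percent the neonatal and adult means were 15.4 and 14.3, and their replicates overlapped. TAC replicate 1 lay between the adult replicates while TAC replicate 2 lay below both. Without TAC replicate 2 the TAC value was 56.5%.

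**Figure D1:**
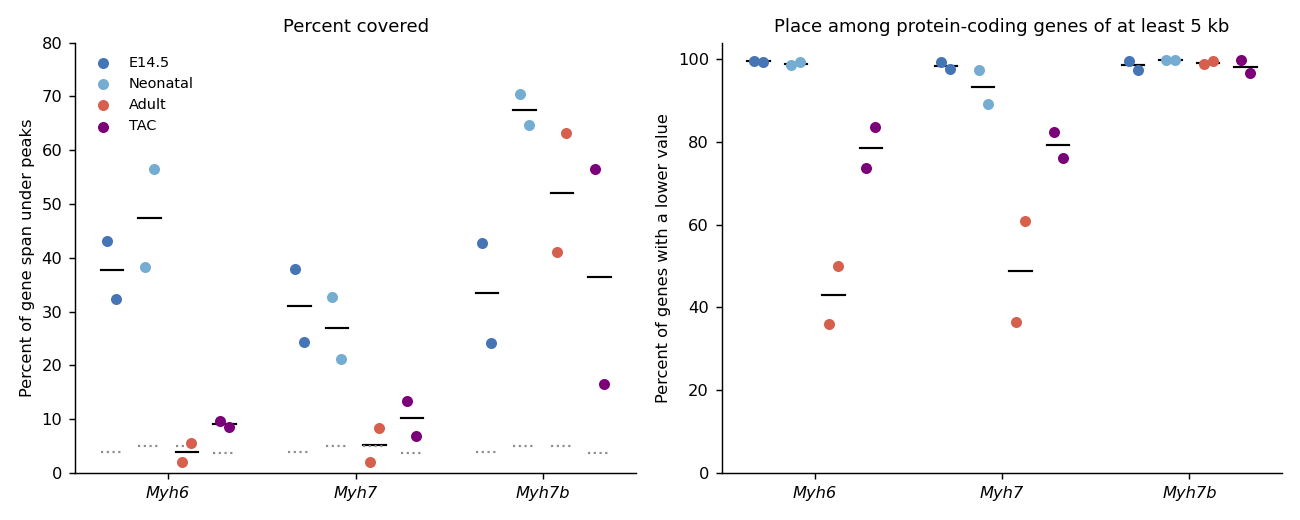
Percent of the gene span under 5-hmC peaks (left) and the percent of the 15016 genes tested with a lower value in the same list (right) for Myh6, Myh7 and Myh7b. Each point is a replicate, black bars are means of 2, and grey dotted bars are the mean over both replicates of the median gene. In the adult Myh6 and Myh7 lie near the median gene, and Myh7b lies far above it.

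The genes tested were the 15016 protein-coding ones on the assembled chromosomes that spanned 5 kb or more and touched a peak in any list. Their median gene had 3.25 to 5.64% of its span covered. In the E14.5 and neonatal lists Myh6 was above 98.5 to 99.7% of these genes and Myh7 above 89.1 to 99.3%. In the adult lists both stood near the middle: Myh6 was above 36.0 and 50.02% of all, and Myh7 above 36.5 and 61.01%. In the TAC lists Myh6 was above 73.7 and 83.5% and Myh7 above 82.4 and 76.1%. Myh7b was above 96.6% or more of the genes in all 8 lists, and ranked number 12 from the top in neonatal replicate 1.

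For the background of such differences, both adult replicates were below both neonatal ones in 21.7% of all genes tested, and below both E14.5 ones in 18.2%. All 3 members met the first and Myh6 and Myh7 the second, but as multiples of the autosomal percent the Myh7b replicates overlapped between neonatal and adult. All 4 early values were above all 4 late ones in 7.38% of the genes, a division looked at after the values were seen, and in Myh6 and Myh7. In size, the neonatal to adult difference was -43.6 percentage points for Myh6, -21.7 for Myh7 and -15.5 for Myh7b, and 0.0533, 0.519 and 1.27% of all genes had a more negative one. The median gene differed by -0.153. From adult to TAC both replicates were higher in 6.02% of all genes and in Myh6, by 5.26 points, where the median gene differed by -1.02. TAC replicate 1 alone was above both adult replicates in 19.2% of all genes, in Myh6 and in Myh7. Both neonatal replicates were above both E14.5 ones in 25.9% of the genes and in Myh7b, by 34.1 points. All these shares are of gene spans, and none was computed for the smaller or upstream regions described below.

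Over the 4 points, an exact permutation test, which asks how many of the 105 ways to pair up the 8 samples give as large a spread between pairs (one-sided by construction, smallest p 0.00952), gave p = 0.0381 for Myh6, 0.0857 for Myh7 and 0.286 for Myh7b. Such a p of 0.05 or less was reached by 7.84% of all genes. Adjusted over all genes tested (Benjamini-Hochberg), the exact permutation p was 0.566 for Myh6 and Myh7 and 0.715 for Myh7b, and the lowest of any gene was 0.562. For a pair of points the smallest two-sided exact permutation p is 0.333. The neonatal to adult differences of Myh6 and Myh7 exceeded the distance between the replicates of either point, that of Myh7b did not, and none of the genes tested passed the correction. The Myh6 value lost its call with equal numbers of peaks (exact permutation p = 0.105), with the replicate block (0.125), without the TAC point (0.133), and without E14.5 replicate 2 or neonatal replicate 2 (0.0667 each).

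Set side by side in the same list, the alpha gene was covered more than the beta gene in 5 of 8 lists. Myh7 minus Myh6 was -5.33 and -8.07 percentage points at E14.5, -5.56 and -35.3 in neonatal CMCs, 0.0631 and 2.72 in adult CMCs and 3.77 and -1.69 after TAC. The mean difference was -6.17 ± 12.5 (SD, n = 8 lists), which an exact two-sided sign-flip permutation test did not separate from 0 (p = 0.141), and neonatal replicate 2 held the most negative value by far; without it the mean was -2.01. The difference did not separate the 4 points either (exact permutation p = 0.181).

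Myh7b was covered more than Myh7 in 7 of 8 lists, by a mean of 29.0 points ± 20.9 (exact sign-flip permutation p = 0.0156, 0.0469 adjusted over the 3 pairs of genes). The difference was 4.88 and -0.185 points at E14.5, 37.7 and 43.5 in neonatal CMCs, 38.9 and 54.7 in adult CMCs and 43.1 and 9.60 after TAC. The 8 lists come from 4 points. The mean, SD and p of each pair of genes therefore pool the points and describe no single one. Counted as peaks per 10 kb the difference turned, to -0.242 (exact permutation p = 0.531), and with equal numbers of peaks it lost its call (24.3 points, exact permutation p = 0.0547). Myh7b exceeded Myh6 in 6 of 8 lists, by 22.9 points ± 24.1 (p = 0.0625, adjusted 0.0938, exact sign-flip permutation). In the adult lists the differences between Myh7b and Myh6 were 39.0 and 57.5 points. Myh7b had 2.44 CpG per 100 bp, Myh6 1.66 and Myh7 1.55, against 0.775 over chromosome 14 and 0.853 over chromosome 2. The mean coverage over all 8 lists had the same order, but of the 4 points only the neonatal one did. At E14.5 Myh6 (37.8%) exceeded Myh7b (33.4%). Myh7 exceeded Myh6 in adult CMCs (5.23 against 3.84%) and after TAC (10.1 against 9.10%). The part of CpG density in these differences was not tested.

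**Figure D2:**
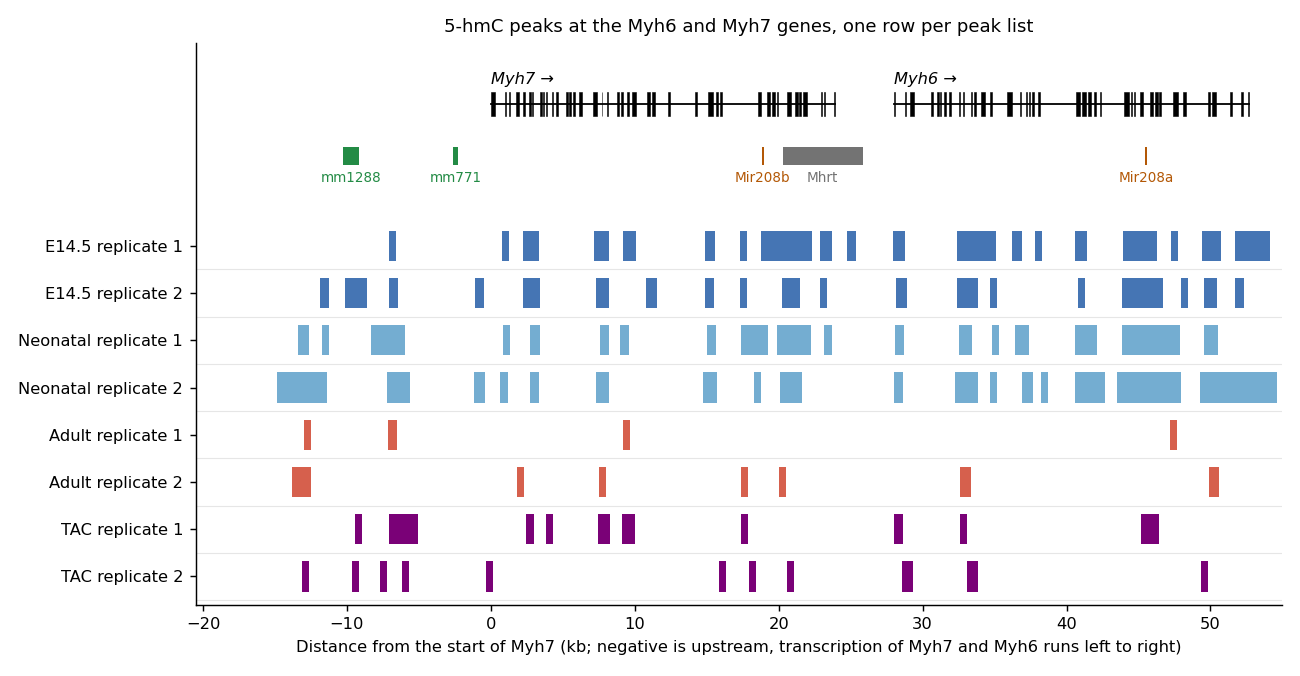
5-hmC peaks (coloured boxes, one row per list) across Myh7, the interval and Myh6, with exons as black boxes and annotated microRNA genes, the antisense RNA Mhrt and enhancers mm1288 and mm771 below; the x axis is the distance from the start of Myh7 in kb. The 4 upper rows are densely filled over both genes, the 4 lower rows sparsely, and the interval holds peaks in E14.5 replicate 1 (18.4% covered) and next to none in the other rows.

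Each gene was cut into 3 segments of equal length, 5′, middle and 3′. Within Myh6 the 3′ segment was covered most before and just after birth. It had 55.9 and 51.3% under peaks in the E14.5 lists and 52.8 and 83.63% in the neonatal lists, against 42.9, 32.4, 24.7 and 32.3% of the 5′ segment in the same 4 lists. The middle segment held 13.4 to 53.4% in the early lists and 0% in all 4 adult and TAC lists. In the 5′ segment both TAC lists (13.8 and 19.5%) were above both adult lists (0 and 9.28%), with no share over all genes computed for segments. Myh7 was likewise covered most in its 3′ segment, with 59.9, 28.6, 59.7 and 25.6% in the early lists, where replicate 1 of each point was the higher one. Its middle segment had 14.7 to 23.0% in the early lists, and 0.539 to 15.0% in the late ones, the highest of them in TAC replicate 1.

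Exons were covered more than introns in most lists. In Myh6 the exonic bases were covered at 61.3 and 50.3% in the E14.5 lists, 54.1 and 67.9% in the neonatal lists, 4.42 and 7.07% in the adult lists and 10.1 and 8.58% in the TAC lists. Exonic exceeded intronic coverage in 8 of 8 lists in Myh6, by a mean of 11.2 points ± 10.8 (SD over the lists). It did so in 7 of 8 in Myh7 (5.49 ± 7.29) and in 8 of 8 in Myh7b (21.9 ± 6.13). In the TAC lists the introns of Myh6, at 9.51 and 8.53%, were close to its exons. In Myh7 the exception was adult replicate 2, with 4.44% of exonic and 9.78% of intronic bases. Exons were also richer in CpG, with 3.66 per 100 bp against 1.01 in the introns of Myh6, 3.29 against 0.919 in Myh7 and 4.63 against 1.64 in Myh7b, and the part of CpG density was not tested.

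From exon 14 of Myh6 on, 24 exons have a partner of equal length in Myh7 whose number is 2 higher, with a median of 95.01% equal bases. Counting an exon as covered when at least 50% of it lay under a peak, both partners were covered in 9 and 4 of the 24 pairs at E14.5 and in 7 and 6 in neonatal CMCs. In the 4 adult and TAC lists no pair had both partners covered. Pairs with only the Myh6 exon covered numbered 5 and 10 at E14.5 and 8 and 14 in neonatal CMCs, and those with only the Myh7 exon covered 5, 4, 4 and 1. Of these exons, 10 of Myh6 and 4 of Myh7 were covered in all 4 early lists, and exon 26 of Myh6 with exon 28 of Myh7, printed above, was the one pair in which both were.

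**Figure D3:**
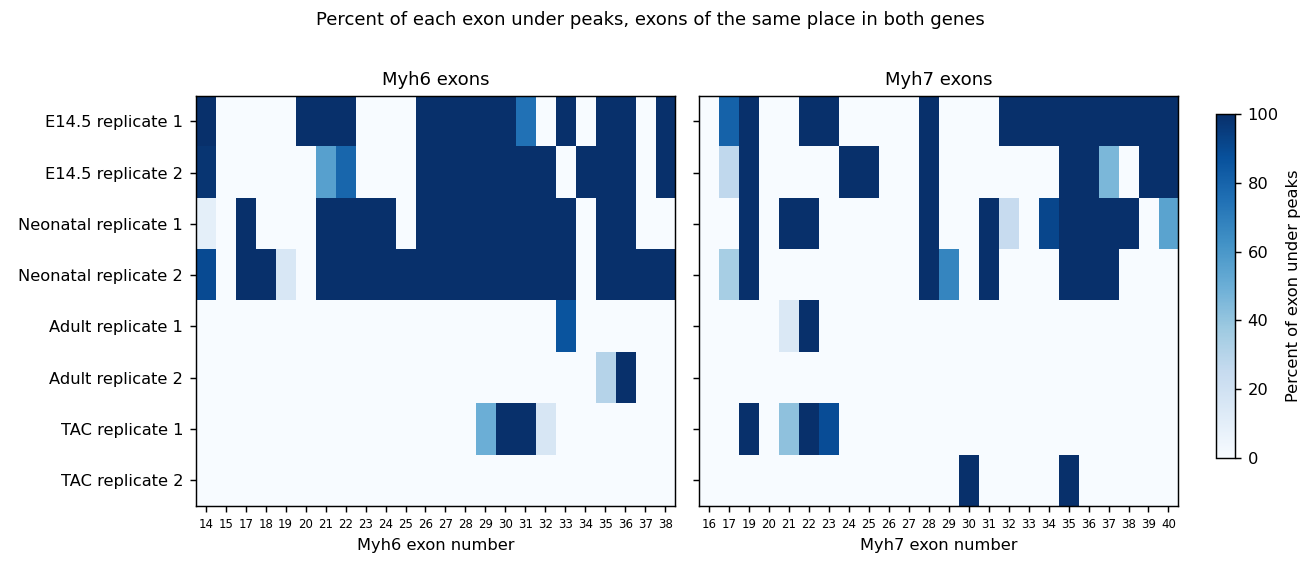
Percent of each of 24 exons under peaks (colour, 0 to 100) in Myh6 (left) and of its partner in Myh7 (right), one row per list and one column per exon. In Myh6 exons 26 to 31 are at least 50% covered in all 4 E14.5 and neonatal rows. In E14.5 replicate 1 as many exons are covered in Myh7 as in Myh6, in the other 3 early rows fewer, and the adult and TAC rows are almost empty in both genes.

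In Myh6 and Myh7 few places were common to both replicates of a late point. In Myh6, 27.7% of the GB lay under peaks of both E14.5 replicates and 35.7% under both neonatal ones, against 0% under both adult and 0.620% under both TAC replicates. In Myh7 the shares were 20.3, 17.9, 0 and 0%. In Myh7b they were 17.8, 58.5, 33.5 and 14.3%, with the adult share above that of E14.5. Both early points together shared 5411 bases of Myh6 and 3075 of Myh7. Of these bases 4153 in Myh6 and 2318 in Myh7 lay in no adult list, and 1911 and 903 of the latter lay in a TAC list. Of the peaks at both loci, 61.2% of the E14.5 peaks overlapped a peak of the other replicate, 88.0% of the neonatal, 24.0% of the adult and 41.9% of the TAC peaks.

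The place of Myh6 in most lists was in intron 10 (chr14:54961510-54961575, 66 bases), under a peak in 7 lists, all but adult replicate 1. In Myh7 it was in intron 18 (chr14:54986603-54987062, 460 bases), under a peak in both E14.5 lists, both neonatal lists, adult replicate 2 and TAC replicate 1. Of all windows of 50 bases in either gene, 1485 were found in both, 6.03% of those of Myh6 and 6.21% of those of Myh7. Of the 2857 bases in such windows, 84.9% in Myh6 and 78.5% in Myh7 lay under a peak of any list, against 69.9 and 54.9% of the whole GB. The part that reads of low mapping quality play in these values was not tested.

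The starts of the alpha and beta genes are set side by side next, and no difference between them was tested. A peak lay in intron 1 of Myh6 in both E14.5 lists, both neonatal lists and TAC replicate 1, which shared the 425 bases chr14:54966050-54966474. A peak of TAC replicate 2 lay next to them, and 6 lists shared the 55 bases chr14:54965995-54966049. Within 1 kb on each side of the start, 44.2, 37.6, 31.4 and 31.3% of bases were covered in the 4 early lists, 0 and 0% in the adult lists and 31.6 and 22.1% after TAC. Both TAC lists were thus above both adult ones at this window, and no share over all genes was computed for start windows. Around the start of Myh7 the same window held 12.7, 25.2, 8.20 and 44.8% in early lists, 0 and 0% in adult lists and 0 and 25.0% after TAC. The start of Myh7b had a peak in 1 list, E14.5 replicate 2 (25.0% of the window).

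The promoters of the alpha and beta genes are printed with their CpG in capitals, as 300 bases around the start, most of them upstream, on the sense strand (RefSeq, GRCm38.p6).

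Myh6 promoter, chr14:54966558-54966857: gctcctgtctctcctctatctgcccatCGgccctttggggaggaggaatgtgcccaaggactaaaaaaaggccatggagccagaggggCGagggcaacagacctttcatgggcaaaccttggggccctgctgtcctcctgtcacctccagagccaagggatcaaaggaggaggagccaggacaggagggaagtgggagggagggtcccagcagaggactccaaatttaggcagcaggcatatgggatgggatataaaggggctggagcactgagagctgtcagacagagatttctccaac
Myh7 promoter, chr14:54994577-54994876: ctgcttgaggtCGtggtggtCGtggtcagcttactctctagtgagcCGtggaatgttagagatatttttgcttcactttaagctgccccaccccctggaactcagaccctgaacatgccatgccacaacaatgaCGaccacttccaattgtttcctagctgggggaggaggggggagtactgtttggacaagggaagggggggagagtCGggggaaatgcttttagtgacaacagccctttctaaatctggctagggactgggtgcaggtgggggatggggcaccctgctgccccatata

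Myh6 had 2 CpG in this window and Myh7 5, where the median of 32851 RefSeq promoters is 7. Peaks reached into the Myh6 promoter in 4 lists, over 151 bases in E14.5 replicate 1, 15 and 63 in the neonatal lists and 37 in TAC replicate 1. Over the Myh7 promoter a single peak, in TAC replicate 2, covered all 300 bases. Both promoters hold 1 match to CATTCC (the MCAT motif) on the opposite strand and none on the strand shown, as 14.7% of all RefSeq promoters do on either strand; neither had a match to the MEF2 or CArG consensus in these letters.

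The 4076 bp between the genes, which hold the promoter of Myh6 and the start of the antisense RNA Mhrt, were nearly free of peaks. Peaks covered 18.4% in E14.5 replicate 1 and 0.319% in neonatal replicate 2, and none was found in the other 6 lists. Mhrt, a long non-coding RNA transcribed from the opposite strand of the locus in the adult heart (chr14:54968787-54974349), reaches from the interval into the 3′ part of Myh7. It was covered at 61.6 and 30.8% in the E14.5 lists, 44.5 and 24.6% in the neonatal lists, 0 and 4.08% in the adult lists and 0 and 9.01% in the TAC lists. Apart from a peak of 648 bp in E14.5 replicate 1, these bases lay where Mhrt overlaps Myh7, so that the values belong to both genes.

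The microRNA genes differed. The Mir208a hairpin (chr14:54949060-54949142, intron 29 of Myh6) lay wholly under a peak in both E14.5 lists, both neonatal lists and TAC replicate 1, and in neither adult list. The Mir208b hairpin (chr14:54975700-54975776, intron 31 of Myh7), whose mature product has the same seed, lay under a peak in replicate 1 of E14.5 and of the neonatal point only. The Mir499 hairpin (chr2:155622880-155622958, intron 19 of Myh7b) lay under a peak in adult replicate 2 alone. A stretch of 467 bases that 5 lists shared, centred in intron 20, lay downstream of it.

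Upstream of Myh7 the coverage of the 20 kb was 2.50 and 17.3% in the E14.5 lists, 18.3 and 29.0% in the neonatal lists, 5.67 and 6.76% in the adult lists and 12.7 and 11.8% in the TAC lists. Both TAC lists lay above both adult lists, by 6.04 points in the mean, and the 12.7% of TAC replicate 1 alone also did. For upstream windows no share over all genes was computed. The neonatal lists lay above both the E14.5 and the adult lists. The exact permutation test over the 4 points gave p = 0.181. The place most often under a peak lay at -6.82 kb from the start, where 6 lists (both E14.5, both neonatal, adult replicate 1 and TAC replicate 1) shared 489 bases, and the peaks of TAC replicate 2 lay on either side. The 300 bases of it with most CpG are printed on the strand of Myh7, because no other place upstream of the gene was shared by as many lists. A further place, at -12.83 kb, lay under peaks of both neonatal lists, both adult lists and TAC replicate 2, over 355 shared bases, and under none of the E14.5 lists.

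Myh7 upstream site, chr14:55001306-55001605: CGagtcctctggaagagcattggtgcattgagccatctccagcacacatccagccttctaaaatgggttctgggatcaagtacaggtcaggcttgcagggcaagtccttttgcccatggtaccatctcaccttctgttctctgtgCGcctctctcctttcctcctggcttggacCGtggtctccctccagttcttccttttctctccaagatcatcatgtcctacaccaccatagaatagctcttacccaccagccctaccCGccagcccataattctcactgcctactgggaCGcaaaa

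RefSeq annotates 2 enhancers of the VISTA collection in this window. mm771 (chr14:54996894-54997224) had no peak in any list. mm1288 (chr14:55003765-55004913) was covered at 88.1% in E14.5 replicate 2, 26.1% in TAC replicate 1 and 43.6% in TAC replicate 2, and at 0% in E14.5 replicate 1 and in the neonatal and adult lists. Both TAC lists thus had a peak at mm1288 where neither adult list did, and how often other such regions do was not computed. The 270 bases that both TAC lists covered, with 2 CpG, are printed on the strand of Myh7.

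mm1288 segment, chr14:55003795-55004064: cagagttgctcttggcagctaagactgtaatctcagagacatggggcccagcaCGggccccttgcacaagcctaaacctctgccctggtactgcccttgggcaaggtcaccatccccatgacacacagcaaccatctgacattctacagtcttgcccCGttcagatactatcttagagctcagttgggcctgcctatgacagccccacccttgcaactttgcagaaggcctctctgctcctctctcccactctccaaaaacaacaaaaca

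The peaks behind this were 501 bp wide in each TAC list and 1561 bp wide in E14.5 replicate 2. The median peak width of every list was also 501 bp. No match to the MCAT, MEF2 or CArG letters was found in the segment or in the upstream site.

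**Figure D4:**
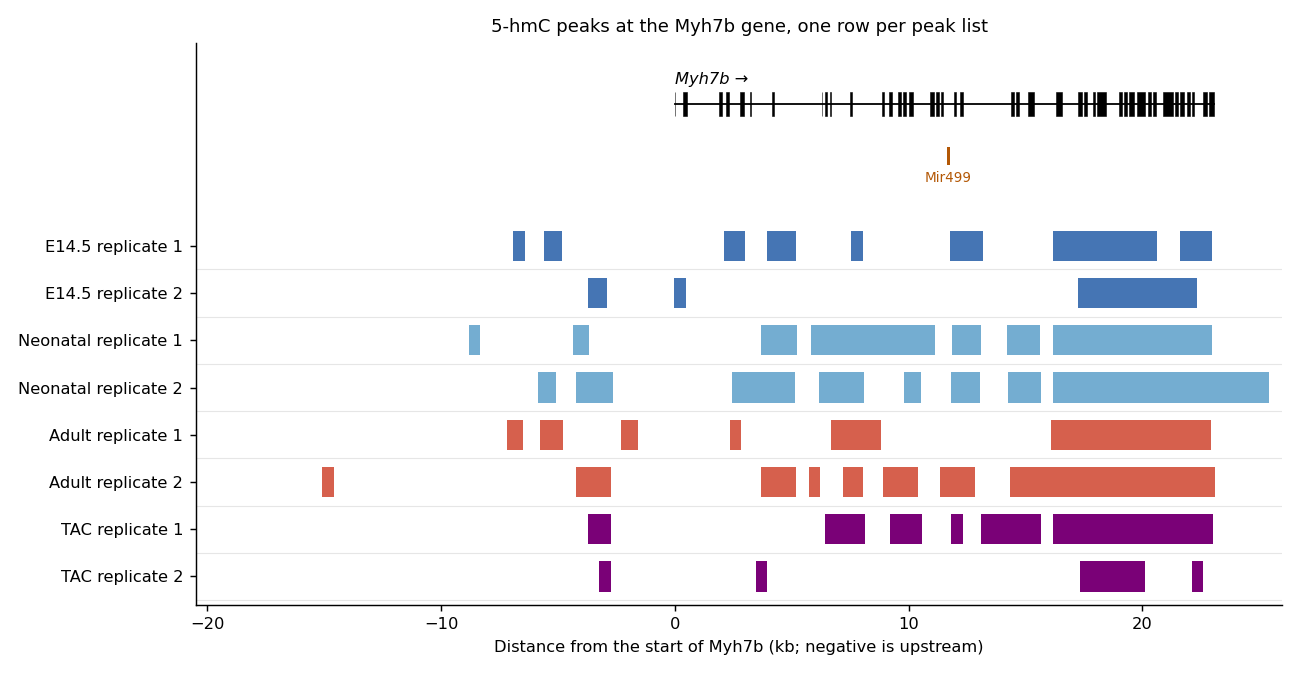
5-hmC peaks (coloured boxes, one row per list) across Myh7b and the 20 kb upstream, with exons as black boxes and the Mir499 gene below; the x axis is the distance from the start of Myh7b in kb. A wide peak over the 3′ part of the gene appears in every row and is narrower in the lower row, TAC replicate 2.

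Myh7b was covered most at its 3′ end. Its 3′ segment had 75.8 and 66.0% under peaks in the E14.5 lists, 91.4 and 93.2% in the neonatal lists, 89.0 and 100% in the adult lists and 92.9 and 42.9% in the TAC lists, and it is the segment richest in CpG (3.45 per 100 bp, against 1.60 in the 5′ segment). All 8 lists covered the 2794 bases chr2:155628573-155631366, whereas no base of Myh6 was in more than 7 lists and none of Myh7 in more than 6. Its peaks were wide rather than many. The widest peak on Myh7b measured 4433 and 5077 bp in the E14.5 lists, 6792 and 9252 in the neonatal lists, 6842 and 8755 in the adult lists and 6856 and 2794 in the TAC lists, while the widest on Myh6 in an adult list measured 764 bp and on Myh7 501 bp. The number of peaks that touched the gene was 6 and 2, 5 and 6, 3 and 6, and 5 and 3 at the 4 points in turn for Myh7b, and for Myh6 9 and 8, 7 and 8, 1 and 2, and 3 and 3. For Myh7 it was 8 and 7, 8 and 6, 1 and 4, and 5 and 4. The middle segment of Myh7b varied most, with 23.3 and 0% in the E14.5 lists, 75.7 and 45.6% in the neonatal lists, 14.6 and 56.9% in the adult lists and 59.9 and 0% in the TAC lists.

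The 20 kb upstream of Myh7b were sparsely covered, with 6.32 and 4.18% in the E14.5 lists, 5.81 and 11.8% in the neonatal lists, 11.8 and 10.2% in the adult lists and 4.91 and 2.50% in the TAC lists. Both TAC lists were below both adult lists, without TAC replicate 2 as well, and both adult lists were above both E14.5 lists. Here too no share over all genes was computed. The window overlaps the gene Gss, and the 3′ end of Myh7b overlaps that of Trpc4ap. Gss (glutathione synthetase) was covered at 1.67 to 5.07% over the 8 lists, and Trpc4ap at 5.12 to 17.6%.

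The other 11 myosin heavy chain genes had a median coverage of 1.93 to 5.08% over the lists. At E14.5 it was above that of the median gene, with 4.77 and 5.08% against 4.02 and 3.92%. In the neonatal, adult and TAC lists it was below that of the median gene. From neonatal to adult 4 of the 11 were lower in both replicates (Myh10, Myh11, Myh13, Myh15) and 1, Myh14, was higher, where 21.7 and 15.7% of all genes were; their median difference was -1.29 points. From E14.5 to neonatal 3 were higher and 1 lower, where 25.9 and 6.45% of all genes were. From adult to TAC none was higher and 2 were lower, Myh10 and Myh14, where 6.02 and 23.6% of all genes were. With TAC replicate 1 alone the same 2 were below both adult replicates (31.2% of all genes), and Myh11 and Myh13 were above them (19.2%). From E14.5 to adult 1 was higher and 3 lower, where 28.6 and 18.2% of all genes were. Myh9, a non-muscle chain, was the one with most coverage (15.3 to 34.5%), and Myh14, another non-muscle chain, had 8.80 and 5.26% in the neonatal and 18.2 and 24.6% in the adult lists. The chains of skeletal muscle Myh1, Myh2 and Myh4, which CMCs do not use, had at most 4.43%. Other skeletal muscle chains reached higher, with at most 4.77% in Myh8, at most 5.08% in Myh13 and 4.72 to 16.8% in Myh3.

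The 9 genes of other thick filament proteins and myosin chaperones were higher in both neonatal than both E14.5 replicates in 6 cases (Myl3, Mybpc3, Myom1, Myom2, Unc45b, Smyd1) and lower in none, where 25.9 and 6.45% of all genes were. From neonatal to adult 4 were lower (Myl2, Myl3, Mybpc3, Myom1) and 2 higher (Myl7, Myom2), where 21.7 and 15.7% of all genes were. Their median difference was -2.08 points. Myl7 spans 2146 bp and is not among the genes of at least 5 kb behind the shares in this paragraph. Mybpc3, the myosin-binding protein C of the heart, was covered at 36.8 and 46.2% in the neonatal lists, 16.6 and 22.2% in the adult lists and 2.73 and 5.45% in the TAC lists. Myl3, the ventricular essential light chain, was covered at 43.1 and 58.1% in the neonatal and 11.6 and 17.7% in the adult lists. After TAC 4 were lower than in the adult (Myl3, Myl7, Mybpc3, Smyd1) and none higher, where 23.6 and 6.02% of all genes were, with a median difference of -5.72 points. With TAC replicate 1 alone the same 4 were below both adult replicates and Myom1 and Unc45b above them, where 31.2 and 19.2% of all genes were. The median difference was then -2.24 points. Myh6 was above its adult values in both TAC lists.

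The genes most like Myh6 over the 8 lists (Pearson r of percent covered, among the 11303 genes, 11316 for Myh7b, with a mean coverage of at least 2% and more than 1 Mb away) were Stox1 (r = 0.986), Adam12 (0.984) and Sfrp1 (0.982). Those most like Myh7 were Gm773 (0.984), Igsf8 (0.980) and Rbm24 (0.979), and those most like Myh7b Trak2 (0.988), Rnf122 (0.971) and Vdr (0.971). These are descriptions over 8 lists, and genes of one list share its overall number of peaks. Rbm24, a splicing regulator of heart muscle, had means of 14.3, 13.5, 0 and 1.96% at the 4 points in turn. Between the members, r was 0.818 for Myh6 and Myh7, 0.284 for Myh6 and Myh7b and 0.231 for Myh7 and Myh7b.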

How the data were processed

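DNA of CMCs was immunoprecipitated for 5-hmC (hMeDIP) and sequenced beside input. Per the labels and the study's methods, the authors aligned reads to mm10 with BWA 0.7.4-r385, handled duplicates with Picard, removed reads of mapping quality below 10 with bamtools, and called peaks per replicate with HOMER in histone mode. The deposited lists hold peak positions and a score that is 1 throughout. Per the file headers, the immunoprecipitate was scaled to the control in both TAC lists and in replicate 2 of the neonatal and adult points, and the control to the immunoprecipitate in the other 4. Read depth is unknown.

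Percent covered, with code checked on simulated data, was computed with Python 3.11.15 and numpy 2.4.6 on curated RefSeq transcripts (GRCm38.p6, annotation release 108). Values are mean ± SD of 2 biological replicates. The 4 points were compared by exact permutation over divisions into pairs, genes within lists by exact sign flips, and 2 points by non-overlap of replicates.

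Named genes were the members, genes within or overlapping their windows, the other myosin heavy chain and thick filament genes, cell type markers, and the 3 genes most alike per member. Members and lists were chosen with earlier results of these data known. Same-numbered replicates of different points did not deviate together over all genes (r of -0.200 to 0.199 over the 6 pairs of points), so the numbers were not taken as pairs.

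Alternatives were coverage relative to the autosomes, peaks per 10 kb, wider peaks, equal numbers of peaks, gene bodies without the first 1 kb, exons or introns alone, 10 kb upstream, longest transcripts, other overlap rules, common regions, each replicate left out, the replicate block and the 6 samples without TAC. Relative coverage for 2 points, and gene lists without TAC replicate 2, were added after seeing the data.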

Additional observations from a re-analysis of the deposited data

How the results depend on the processing

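With 2 replicates per point and no strength or depth behind a peak, the values depend on which bases were called. Of the alternative values, 231 stayed the same by the rule for their kind, 9 moved, 14 gained and 8 lost a call, and 4 reversed. The cause was not tested. For a permutation test the same meant no reversal and the same side of the threshold. For a difference between 2 points it mostly meant a shift smaller than the SD of the replicates, so the sign could change. With each replicate left out, Myh7b from adult to TAC ranged from -35.6 to 4.44 points and counted as the same. The exact permutation p of Myh6 over the 4 points was 0.105 with equal numbers of peaks, 0.125 with the replicate block, 0.133 without the TAC point, and 0.00952 to 0.0667 with each replicate left out, highest without E14.5 replicate 2 or neonatal replicate 2. That of Myh7 was 0.0286 over exons alone. That of the 20 kb upstream of Myh6 was 0.0417 with the replicate block, and that upstream of Myh7b 0.0381 with equal numbers of peaks. Upstream of Myh7 it was 0.0476 without E14.5 replicate 2, where the order of the points also turned, and 0.505 without neonatal replicate 2. For Myh7 minus Myh6 it was 0.0476 with equal numbers of peaks, 0.00952 over exons, and 0.0286 to 0.343 with each replicate left out, lowest without neonatal replicate 1. The replicate block changed no other call.

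Within lists, counting peaks per 10 kb turned all 3 differences between genes, to 0.167 for Myh7 minus Myh6, -0.242 for Myh7b minus Myh7 and -0.0743 for Myh7b minus Myh6, by exact permutation p = 0.445, 0.531 and 0.852. Myh7 minus Myh6 was -8.42 points with wider peaks (exact permutation p = 0.0156). Myh7b minus Myh7 was 24.3 points with equal numbers of peaks (p = 0.0547, exact permutation) and 29.9 without TAC (p = 0.0625, exact permutation). Myh7b minus Myh6 passed 0.05 as relative coverage (6.49 multiples), with wider peaks (23.8 points), without the first 1 kb (25.7), over exons (30.5) and without E14.5 replicate 2 (27.3); with each replicate left out it was 17.9 to 27.3.

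In regions common to both replicates, Myh6 differed by 0.620 points from adult to TAC and -27.7 from E14.5 to adult, and Myh7 by 0 from adult to TAC. Relative coverage, added after seeing the data, separated Myh7 in TAC from adult (2.05 multiples) and Myh7b in adult from E14.5 (5.41), and no longer Myh7b in adult from neonatal (-1.12). With overlap of 50% of both peaks required, 64.0% of neonatal, 8.0% of adult and 12.9% of TAC peaks were shared, and 52.0% of adult peaks lay within 1 kb of one in the other replicate. Without TAC replicate 2, also added after seeing the data, the median difference from adult to TAC was 0 over the other myosin heavy chain genes (-0.754 with it) and -2.24 over the thick filament genes (-5.72 with it).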
